A study of Caenorhabditis elegans with 6 samples.

Results

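The Hedgehog-related and patched-related genes of Caenorhabditis elegans were followed in RIS neurons sorted from L1 larvae, set against whole L1 larvae. Members were chosen by name: symbols beginning wrt-, grd-, grl-, ptr- or ptc- with a number, and qua-1, hog-1, daf-6, che-14, ptd-2, ncr-1 and ncr-2. The authors' deposited table of this comparison held 66 of them among 12072 genes, 38 Hedgehog-related and 28 patched-related. The current gene name table lists 90 such symbols, and the other 24 (15 grl, 5 grd, 3 ptr and wrt-7) are not analysed here.

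The labels list 3 libraries of RIS, a GABA-using, peptide-releasing interneuron that brings on sleep-like quiescence, and 3 reference libraries of whole larvae. Both groups were synchronized by hypochlorite treatment and hatched in M9 buffer. The RIS strain carries mKate driven by the flp-11 promoter, and its larvae were dissociated and sorted by flow cytometry, whereas the reference was the N2 laboratory strain, frozen over liquid nitrogen without a sort. Strain, dissociation and sorting therefore cannot be told apart from cell type in this comparison, and fewer cells of a type cannot be told apart from less RNA per cell. The notes on the sort speak of AVK and mCherry, whereas titles, source, strain and cell type give RIS and mKate. The 6 RIS marker genes listed for this work were flp-11, aptf-1, lim-6, ser-4, unc-25 and unc-47. All 6 were called higher in RIS, with a median log2 fold change of 7.80. The list was chosen with earlier results of these data known, and flp-11 was itself the basis of the sort.

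In flies and vertebrates, Hedgehog is a secreted, sterol-modified ligand that binds Patched, a membrane protein with a sterol-sensing domain, and so frees Smoothened to signal. C. elegans has no clear Hedgehog and no Smoothened, but it has expanded families of both kinds. The warthog (wrt), groundhog (grd), ground-like (grl) and quahog (qua) proteins each carry a secreted N-terminal domain of their own, joined in some of them to the Hog domain, which cuts the precursor in Hedgehog. The Patched side holds ptc-1 and ptc-3, the closer Patched homologues, and the many patched-related ptr genes, with relatives of Dispatched and of the Niemann-Pick protein NPC1. Many of these genes are known from epidermis, glia and other epithelia, where they act in moulting, in the cuticle and in the shaping of apical surfaces.

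The deposited table gives one log2 fold change, mean log2 CPM (counts scaled to library size), F, p-value and adjusted p per gene, so nothing is known of single libraries, their depth or their spread. Separate cultures are not mentioned in the labels, so the p-values reflect no more than the variation among these libraries, possibly technical. The degrees of freedom recovered from F and p point to fewer RIS libraries in the deposited fit than the 3 that the labels list. Genes were called at an adjusted p below 0.05 over the whole table. Fold changes are RIS over whole larvae, unlabelled values in brackets after a gene are log2 fold changes, and the intervals beside them are approximate 95% intervals computed from the deposited fold change and F. Over all 12072 genes the median log2 fold change was −0.78, which places the typical gene below the zero of the table. Measured from that median, 1999 genes were called higher and 2447 lower, against 1188 and 3183 as deposited. For 947 genes (7.84%) the RIS libraries held so few reads that the fitted fold depends on an unstated setting of the fit, and no fold is printed for them. Of these, 8 are members (12.1% of the 66).

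Most called members were lower in RIS. Of the 66 members 38 were called in either direction, where 36.2% of all genes were. They were 33 called lower (50%), where 26.4% of all genes were, and 5 called higher (7.58%), where 9.84% of all genes were. The median log2 fold change of the members was −2.54, against −0.78 over all genes, and without genes at few RIS reads it was −2.31 against −0.55. As deposited, 19 of 38 Hedgehog-related and 14 of 28 patched-related genes were lower, and measured from the median of all genes 12 of 38 and 12 of 28 were. The difference between these sides was not tested. The genes called higher were ptr-5, ptc-1, grl-8, grl-9 and grl-14. Measured from the median of all genes, 24 members were lower, where 20.3% of all genes were, and the same 5 were higher, where 16.6% were. Without genes at few RIS reads, 25 of 58 members were lower, where 20.2% of the remaining genes were, and 5 were higher, where 10.7% were. At an adjusted p below 0.01 there were 20 lower and 2 higher (ptr-5 and grl-8), where 14.2% and 4.9% of all genes were called. Among the 34 members at or above the median expression of the table, 18 were lower and 2 higher (ptr-5 and ptc-1), where 23.7% and 15.2% of such genes were called.

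**Figure D1:**
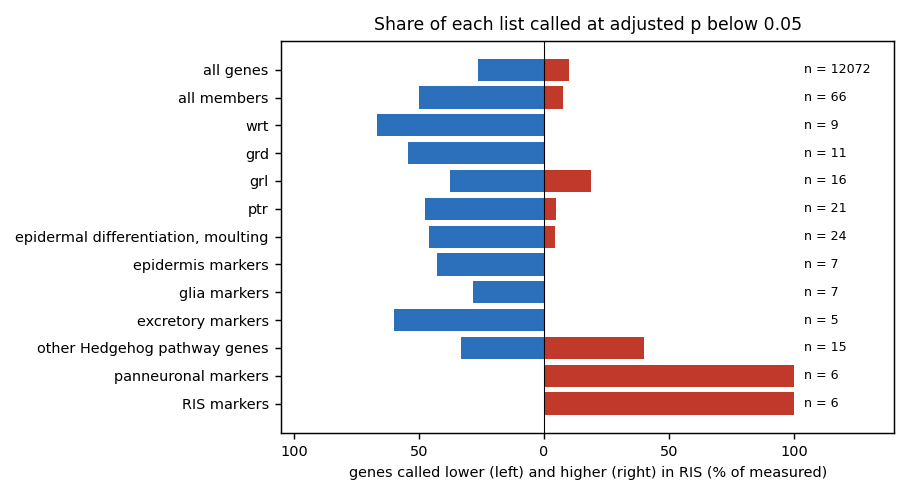
Percent of measured genes called lower (left, blue) and higher (right, red) in RIS at an adjusted p below 0.05, for all genes, for the members and their larger families, and for the marker and pathway lists, with the number measured at the right. The wrt and grd bars extend to the left alone, the grl bar extends both ways, and all 6 RIS and all 6 panneuronal markers lie to the right.

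The strongest rise was that of ptr-5, one of the patched-related genes. It was 55.4-fold higher in RIS (log2 fold change 5.79, interval 4.79 to 6.79, adjusted p = 0.00134) at a mean of 95.7 CPM by the authors' deposited table. This placed it 29th of all 12072 genes by p-value and 102nd by fold change. The authors' deposited table, which names no build, places it on chromosome X from 17318584 to 17326603, and no other protein-coding gene of the current annotation overlaps it. The next 2 genes of the table on its left, C33E10.1 and C33E10.8, were called lower at few RIS reads, and F10D7.1 on its right was not called (−1.12, adjusted p = 0.521) by the authors' deposited table. None of these 3 neighbours was called higher.

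Adjacent ground-like genes, grl-8 and grl-9, rose together. The rise of grl-8 was 14.7-fold (log2 fold change 3.88, interval 2.41 to 5.35, adjusted p = 0.00573) at a mean of 9.04 CPM by the authors' deposited table. The log2 fold change of grl-9 was 2.58 (interval 0.77 to 4.39, adjusted p = 0.0363) at a mean of 1.78 CPM by the authors' deposited table. They follow each other on the same strand of chromosome V, grl-9 from 6730281 to 6731694 and grl-8 from 6731831 to 6733092, with 136 bases between them by the authors' deposited table. The genes on either side did not pass the test. On the grl-9 side ZC487.1 had a log2 fold change of 0.08 (adjusted p = 0.944) by the authors' deposited table. The end of ZC487.1 overlaps grl-9 on the other strand in the current annotation, but in the deposited coordinates 18 bases lie between them. On the grl-8 side T25F10.3 had −1.53 (adjusted p = 0.0639) by the authors' deposited table.

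The rise of grl-14 coincides with a strongly enriched neighbour. It was 6.18-fold (log2 fold change 2.63, interval 0.90 to 4.36, adjusted p = 0.0293) at a mean of 3.40 CPM by the authors' deposited table. In those coordinates grl-14 (chromosome V, 20825559 to 20827740) ends inside sbt-1, a gene on the other strand that encodes the chaperone of the neuropeptide convertase EGL-3, with an overlap of 26 bases. In the authors' deposited table sbt-1 had a log2 fold change of 5.72 (adjusted p = 0.00134) and a mean of 5590 CPM, so that the mean of grl-14 equals 0.0608% of that of sbt-1. Whether reads were counted by strand is not given in the sources used here, and without strand, reads from the overlap cannot be told apart. The part of sbt-1 reads in the value of grl-14 was not tested.

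The last of the 5, ptc-1, encodes a Patched homologue known for its role in the division of germ cells. It was 4.51-fold higher (log2 fold change 2.17, interval 0.98 to 3.37, adjusted p = 0.0152) at a mean of 27.6 CPM by the authors' deposited table. It lies on chromosome II from 7893229 to 7900510, and no other protein-coding gene overlaps it in the current annotation. Its downstream neighbour rev-1, 136 bases away on the same strand, had a log2 fold change of 0.45 (adjusted p = 0.759) by the authors' deposited table.

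Most warthog genes were called lower. Of 9 measured genes 6 were called lower (66.7%, where 26.4% of all genes were) and 0 higher (where 9.84% were). All 9 had a negative fold change, and their median was −3.10. Measured from the median of all genes, 4 of the 9 were lower, where 20.3% of all genes were. The authors' deposited table gave wrt-3 a fall of 97.3-fold (log2 −6.61, interval −8.47 to −4.74, adjusted p = 0.00344) at a mean of 16.4 CPM. For wrt-2 it was −6.06 (66.9-fold lower, adjusted p = 0.00394) at a mean of 145 CPM by the authors' deposited table. The gene wrt-1, whose mean was 253 CPM, was 49.3-fold lower (−5.62, adjusted p = 0.00291) by the authors' deposited table. The intervals of these 3 ended below −4, and those of the other warthog genes with a printed fold ended above −1.

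Beside them wrt-4 fell to few RIS reads (adjusted p = 0.00779) by the authors' deposited table. Smaller falls were listed for wrt-9 (−3.10, adjusted p = 0.0348) and wrt-10 (−2.62, adjusted p = 0.0343) by the authors' deposited table, and both calls ended when measured from the median of all genes. The genes wrt-1 and wrt-10 lie end to end on opposite strands of chromosome II, 53 bases apart (7531145 to 7533246 and 7533300 to 7534563). Of the 3 genes that were not called, wrt-8 passed an unadjusted p of 0.05 (−2.87, p = 0.0365, adjusted p = 0.0853) by the authors' deposited table. The log2 fold changes of the other two, wrt-5 (−1.51) and wrt-6 (−0.79), had intervals that crossed 0 in both directions by more than 1.

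Groundhog genes were likewise called lower or not called. Of 11 measured genes 6 were called lower (54.5%, where 26.4% of all genes were) and 0 higher (where 9.84% were). The median log2 fold change was −2.82. Measured from the median of all genes, 4 of the 11 were lower, where 20.3% of all genes were. The gene grd-6 was 64.1-fold lower (log2 interval −7.97 to −4.03, adjusted p = 0.00450) at a mean of 152 CPM by the authors' deposited table. For grd-14 the authors' deposited table gave −2.82 (7.08-fold lower, adjusted p = 0.0148) at a mean of 191 CPM. Both grd-7 (adjusted p = 0.00658) and grd-12 (adjusted p = 0.00740) were called lower at few RIS reads by the authors' deposited table. Falls of grd-5 (−2.21, adjusted p = 0.0311) and grd-13 (−1.86, adjusted p = 0.0148) were also called there, as deposited but not when measured from the median of all genes.

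A run of 3 groundhog genes on chromosome IV differed in their calls. They lie on the same strand in the order grd-13 (3438312 to 3439503), grd-3 (3439655 to 3440453) and grd-10 (3441055 to 3441770), with 151 and 601 bases between them. While grd-13 fell, grd-10 passed the unadjusted threshold alone (−1.36, interval −2.68 to −0.05, p = 0.0443, adjusted p = 0.0987) by the authors' deposited table. For grd-3 the log2 fold change was −0.36 (interval −1.72 to 1.01, adjusted p = 0.673) by the authors' deposited table. Differences between these genes were not tested. Per kilobase of exon, grd-3 had the highest mean level of all 66 members over both groups, 815 CPM per kilobase.

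Of the remaining groundhog genes, grd-1 had a log2 fold change of −3.20 (p = 0.0264, adjusted p = 0.0666), grd-2 one of −3.51 (adjusted p = 0.114) and grd-15 one of −0.57 (adjusted p = 0.783) by the authors' deposited table. The interval of grd-2, whose mean was 4.84 CPM, was wide, from −7.08 to 0.07.

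Ground-like genes went both ways. Of 16 measured genes 6 were called lower (37.5%, where 26.4% of all genes were) and 3 higher (18.8%, where 9.84% were). The median log2 fold change was −1.79. Measured from the median of all genes, 4 of the 16 were lower and 3 higher, where 20.3% and 16.6% of all genes were. No ground-like gene was at few RIS reads. The gene grl-16, at a mean of 1153 CPM, was 29.0-fold lower in RIS (−4.86, interval −6.33 to −3.39, adjusted p = 0.00391) by the authors' deposited table. For grl-5 the fall was 24.2-fold (−4.60, adjusted p = 0.00560) and for grl-15 it was 16.5-fold (−4.04, adjusted p = 0.00359) by the authors' deposited table. Of the 10 members with a mean of 100 CPM or more, all of them wrt, grd or grl genes, 8 were called lower, where 40.7% of all genes with such a mean were.

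At lower means, grl-7 was 14.2-fold lower (−3.82, adjusted p = 0.00765) by the authors' deposited table. Falls of grl-4 (−3.06, adjusted p = 0.0434) and grl-21 (−2.42, adjusted p = 0.0160) were called there too, but not when measured from the median of all genes. The gene grl-10 passed the unadjusted threshold alone (−1.65, p = 0.0332, adjusted p = 0.0797) by the authors' deposited table. The other 6 genes, at means of 2.31 to 7.68 CPM, were not called, and among them were grl-2 (−0.02), known from the excretory duct and pore, and grl-18 (−1.65), known from glia. The interval of grl-2 ran from −3.11 to 3.06, so neither a rise nor a fall of 8-fold was detectable at that precision.

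The quahog gene fell, and the Hog-only gene did not pass the test. The quahog gene qua-1, which larvae need to moult, was 3.23-fold lower (−1.69, interval −2.81 to −0.57, adjusted p = 0.0304) at a mean of 51.0 CPM by the authors' deposited table, and its call ended when measured from the median of all genes. For hog-1, named for its Hog domain, the log2 fold change was −2.30 (interval −4.75 to 0.16, adjusted p = 0.129) by the authors' deposited table.

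**Figure D2:**
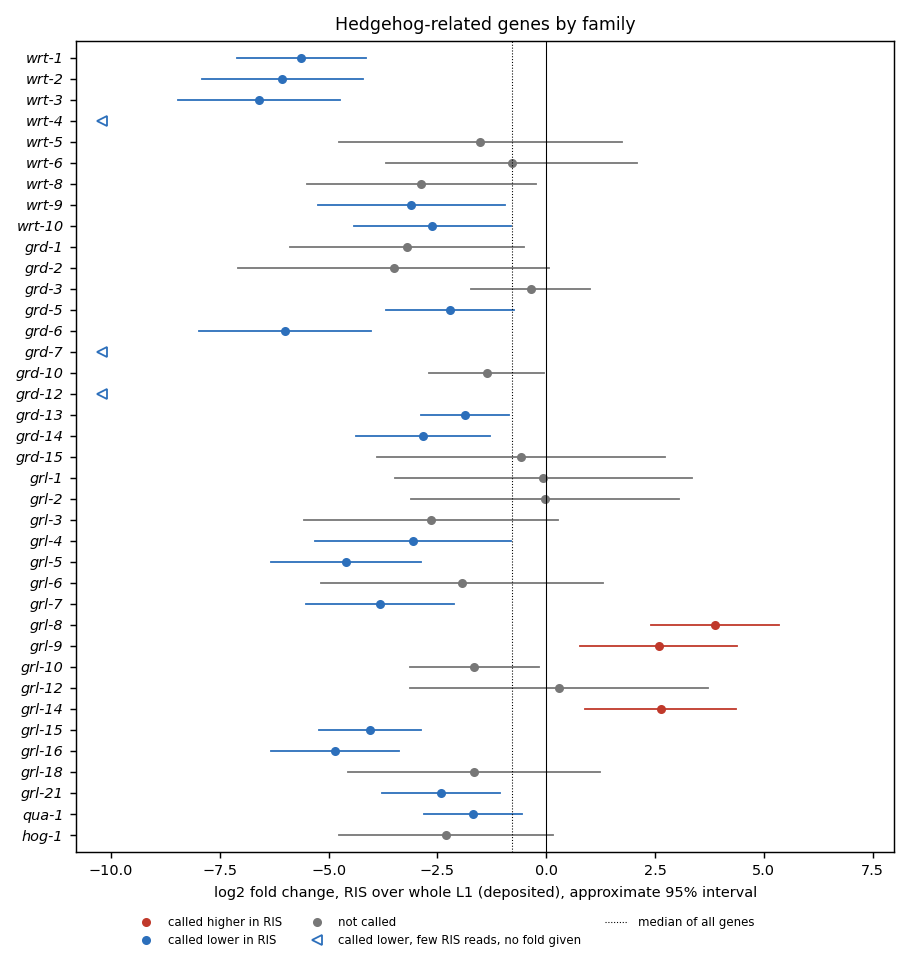
Log2 fold change of RIS over whole L1 larvae (x axis) for each of the 38 Hedgehog-related genes (y axis, by family), with points as deposited and lines for approximate 95% intervals; open triangles mark genes at few RIS reads, drawn at the left edge with no fold, and the dotted line is the median of all genes. Red points are the 3 ground-like genes called higher, and the lowest printed values are those of wrt-3 and wrt-2, at −6.61 and −6.06.

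On the receptor side, the Patched homologues ptc-1 and ptc-3 were listed with opposite signs. While ptc-1 rose (2.17), ptc-3, which is known for roles in moulting and osmoregulation, had −2.31 as its log2 fold change (interval −4.91 to 0.28, adjusted p = 0.146) at a mean of 50.4 CPM by the authors' deposited table and did not pass the test. The difference between them was not tested, and their intervals did not overlap.

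Of 21 measured ptr genes 10 were called lower (47.6%, where 26.4% of all genes were). Only 1, ptr-5, was called higher (4.76%, where 9.84% of all genes were). The median log2 fold change of the ptr genes was −2.46. Measured from the median of all genes, 9 of the 21 were lower and 1 higher, where 20.3% and 16.6% of all genes were. Falls of more than 32-fold were listed for ptr-20 (−5.81, adjusted p = 0.00636), ptr-16 (−5.41, adjusted p = 0.00627) and ptr-18 (−5.33, adjusted p = 0.00508) by the authors' deposited table. Of these ptr-20, at a mean of 3.81 CPM, lay just above the limit that defines few RIS reads, and grd-7 just below it, so its fold is uncertain too. Falls of ptr-6 (−4.82, adjusted p = 0.01995), ptr-12 (−4.42, adjusted p = 0.0139) and ptr-8 (−4.08, adjusted p = 0.00692) were listed next by the authors' deposited table. That table also called ptr-2 lower (−3.41, adjusted p = 0.0232), a call that ended when measured from the median of all genes.

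For 3 further ptr genes the RIS libraries held few reads or none. The authors' deposited table called ptr-3 (adjusted p = 0.00534), ptr-13 (adjusted p = 0.0144) and ptr-22 (adjusted p = 0.00676) lower. For ptr-22 the degrees of freedom of the test were lower by 1, as for 170 genes of the table that have no RIS reads. Its mean over both groups, 2.50 CPM, therefore came from the reference.

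Of the 10 ptr genes that were not called, ptr-1 (−2.43, p = 0.0487, adjusted p = 0.106) and ptr-23 (−1.04, p = 0.0424, adjusted p = 0.0956) passed the unadjusted threshold alone by the authors' deposited table. The interval of ptr-23, −2.04 to −0.05, was the narrowest of the ptr genes. In the authors' deposited table ptr-4 had a log2 fold change of −1.23 (adjusted p = 0.247) and ptr-11 one of −0.11 (adjusted p = 0.955). The log2 fold changes of the other 6 ran from −2.46 (ptr-15) to 2.47 (ptr-21, adjusted p = 0.225) by the authors' deposited table. Among them was ptr-10, known as a glial marker, at 0.28 (adjusted p = 0.836).

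The genes che-14, daf-6 and ptd-2 were all called lower. The gene che-14, a Dispatched relative needed for apical secretion in epidermal and glial socket cells, was 76.6-fold lower (−6.26, interval −8.65 to −3.87, adjusted p = 0.00580) at a mean of 13.1 CPM by the authors' deposited table. The gene daf-6, which acts in amphid glia to limit the lumen of their channel, was called lower at few RIS reads (adjusted p = 0.00522) by the authors' deposited table. The patched and Dispatched relative ptd-2 was 8.41-fold lower (−3.07, adjusted p = 0.0250) there, a call that ended when measured from the median of all genes.

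The NPC1 homologues, which act in sterol handling and hold back dauer formation, differed in their calls. For ncr-1 the log2 fold change listed by the authors' deposited table was −0.14 (interval −1.76 to 1.48, adjusted p = 0.898) at a mean of 32.5 CPM. The reduced degrees of freedom of ncr-2 show that it had no RIS reads, and it was called lower (adjusted p = 0.00652) at a mean of 0.934 CPM by the authors' deposited table. The difference between the homologues was not tested.

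**Figure D3:**
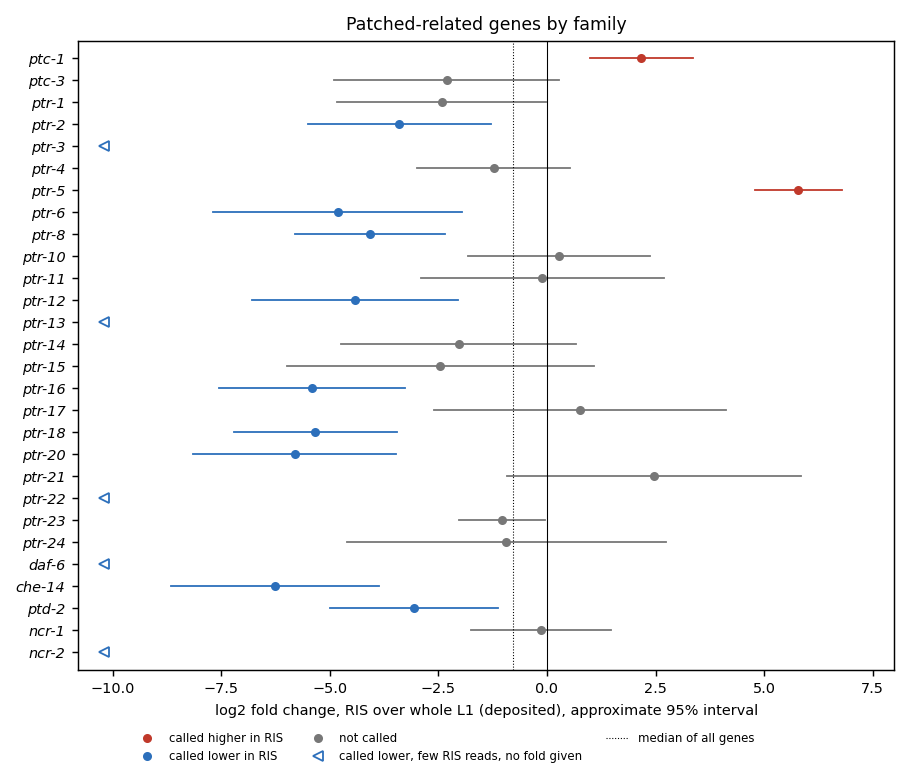
Log2 fold change of RIS over whole L1 larvae (x axis) for each of the 28 patched-related genes (y axis, by family), with points as deposited and lines for approximate 95% intervals; open triangles mark genes at few RIS reads, drawn at the left edge with no fold, and the dotted line is the median of all genes. The red points of ptr-5 and ptc-1, at 5.79 and 2.17, stand to the right of the genes called lower, of which che-14 at −6.26 is the lowest with a printed fold.

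The families differ in size as well as in level. In the Ensembl release 115 annotation the longest protein of each Hedgehog-related gene had a median of 284.5 residues (102 to 1169), and that of each patched-related gene a median of 911 (820 to 1408). Per kilobase of exon, the median of the mean level over both groups was 12.5 CPM for the Hedgehog-related and 3.41 CPM for the patched-related genes. Among the patched-related genes ptr-5 had the highest such level, 27.5 CPM per kilobase. Among the Hedgehog-related genes those of grd-3 (815), grl-16 (686) and grd-14 (320 CPM per kilobase) came first.

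Members lay on all 6 chromosomes, with 21 on V, 14 on X, 11 on II, 10 on I, 8 on IV and 2 on III. A protein-coding gene of the current annotation overlapped 19 members, among them grl-9 and grl-14, and 47 had no such overlap, among them ptr-5, ptc-1 and grl-8.

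**Figure D4:**
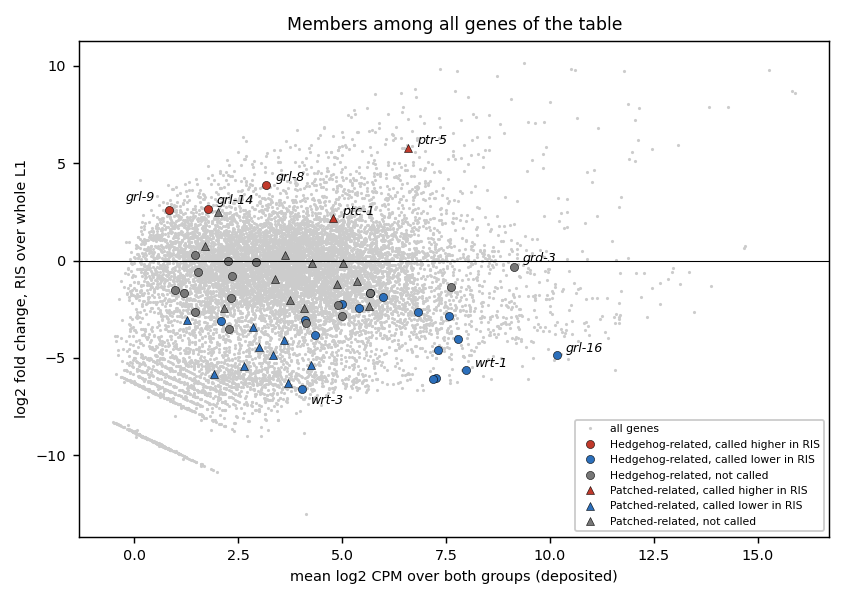
Deposited log2 fold change (y axis) against mean log2 CPM over both groups (x axis) for all 12072 genes (grey) and for the 58 members that were not at few RIS reads (circles, Hedgehog-related; triangles, patched-related; red, called higher; blue, called lower; dark grey, not called). The members sit mostly below 0, grl-16 and wrt-1 far to the right among the lower ones, and ptr-5 stands apart at the top; the grey bands at the lower left are genes with few or no RIS reads.

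Other genes tied closely or loosely to Hedgehog signalling in animals split between both directions. They were listed by function, but with earlier results of these data known. Of 15 such genes 6 were higher (40.0%, where 9.84% of all genes were) and 5 lower (33.3%, where 26.4% were), with a median log2 fold change of 1.19. The higher ones were mostly kinase genes of many pathways. They were kin-1 (4.62, adjusted p = 0.00169) and kin-2 (2.21, adjusted p = 0.00714), the catalytic and regulatory subunits of protein kinase A, with the casein kinase gene kin-19 (3.45, adjusted p = 0.00434) and the glycogen synthase kinase gene gsk-3 (2.78, adjusted p = 0.0128), by the authors' deposited table. Beside them rose scp-1, a homologue of the sterol sensor SCAP (4.95, adjusted p = 0.00439), and the glypican gene lon-2 (1.99, adjusted p = 0.0493), by the authors' deposited table.

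The authors' deposited table listed falls of the megalin gene lrp-1 (−3.40, adjusted p = 0.00502), which worms need to moult, of the heparan sulfate synthesis gene rib-2 (−5.69, adjusted p = 0.0122), and of phg-1, related to the vertebrate Hedgehog co-receptor GAS1 (−3.08, adjusted p = 0.0191). Both genes related to the Hedgehog acyltransferase were lower, hhat-1 (−2.40, adjusted p = 0.0336) and, at few RIS reads, hhat-2 (adjusted p = 0.00695), by the authors' deposited table. The gene of the GLI homologue, tra-1, which in worms acts in sex determination, was not called (1.19, interval −1.22 to 3.61, adjusted p = 0.409) by the authors' deposited table. Measured from the median of all genes, 7 genes of the list were higher and 3 lower: the calls on phg-1 (adjusted p = 0.0526) and hhat-1 (adjusted p = 0.112) ended, and rib-1, also of heparan sulfate synthesis, was called higher (2.22, adjusted p = 0.0216).

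Genes of epidermal differentiation and moulting were also mostly lower where they were called. Of 24 measured 11 were lower (45.8%, where 26.4% of all genes were) and 1 higher (4.17%, where 9.84% were). Their median log2 fold change was −2.51. Measured from the median of all genes, 9 of the 24 were lower and 1 higher, where 20.3% and 16.6% of all genes were. In the authors' deposited table mlt-10 (−4.92, adjusted p = 0.00306), the collagen genes dpy-13 (−4.12) and sqt-3 (−3.89), and elt-3 (−5.69, adjusted p = 0.00382), a GATA factor of the epidermis, were lower. The nuclear receptor gene nhr-23, which drives the moult, was lower as well (−4.34, adjusted p = 0.00508) by the authors' deposited table. Against this direction, elt-6, a GATA factor gene of the seam cells, was higher (4.57, adjusted p = 0.00426) by the authors' deposited table.

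Marker lists of other cell types are small and were read against the 26.4% of all genes called lower and 9.84% called higher. Of 7 epidermis markers 3 were lower (42.9%) and 0 higher, with a median of −3.06. All of these markers but rol-6 are also on the list of epidermal differentiation and moulting, so these lists are not independent. The 3 that were lower, dpy-13, sqt-3 and elt-3, are the genes already named there. Of 7 measured glia markers 2 were lower (28.6%, near the share of all genes) and 0 higher, with a median of −0.67, which lies above that of all genes. Of 5 measured excretory markers 3 were lower (60%) and 0 higher, with a median of −1.89. No epidermis marker was at few RIS reads, while 1 glia and 2 excretory markers were. All 4 pharynx markers were lower, with a median of −4.53, and all 6 panneuronal markers were higher, with a median of 3.86. The summed level of these lists per library is unknown, and their part in the values of the members was not tested.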

How the data were processed

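The labels list RNA sequencing of 3 RIS and 3 whole-larva libraries, and 1 table of the authors' comparison was deposited. Its columns, per the file headers, are those that edgeR's quasi-likelihood test writes: log2 fold change, mean log2 CPM, F, p-value and false discovery rate. The log2 values, the F score and the p-values deposited by the authors were used as given. The sources used here do not give aligner, counting, filters, normalization or genome build, and depth per library is unknown. The table has 0 columns of values per library.

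Benjamini-Hochberg adjustment was recomputed and differed from the deposited one by at most 3.44e-15. Denominator degrees of freedom, recovered from F and p, were 6.76, or 5.76 for 170 genes without RIS reads. A loss of 1 is what a group of 2 libraries at 0 gives; which libraries entered the fit is not stated. An approximate standard error was had by dividing the size of each log2 fold change by the root of its F. Genes at few RIS reads were those whose log2 fold change plus mean log2 CPM lay up to 4.80 above the position of genes without RIS reads, which allows for 3 reads in the smaller RIS library, and whose log2 fold change was below −3. The members (66 of 66) were matched by identifier to the Ensembl release 115 annotation, and 56 shared a start or end with it. Protein lengths, exon lengths and overlaps come from that annotation, coordinates from the table. Members and lists were chosen with earlier results of these data known. Named were called members, those given by their own symbol, the ptc genes, uncalled members at an unadjusted p below 0.05 or among the 10 highest means, and up to 4 genes of the other lists; further names were chosen after their values were seen. Scripts were tested on simulated data. Tools were scipy 1.17.1, pandas 2.3.3 and numpy 2.4.6, with figures by matplotlib 3.10.9, under Python 3.11.15.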

Additional observations from a re-analysis of the deposited data

How the results depend on the processing

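The deposited counts of 5 members higher and 33 lower held at 5 and 33 with a required change of 2-fold and with recomputed adjustment. They were 5 and 24 measured from the median of all genes, 5 and 25 without genes at few RIS reads, and 5 and 28 for members with a family prefix. At an adjusted p below 0.01 they were 2 and 20. At or above median expression, which 34 members reached, they were 2 and 18. The median log2 fold change of the members, −2.54, ranged from −2.46 to −1.76 over the alternatives that apply to it (family prefixes, median expression, few RIS reads and centring). The rule for naming genes, leaving aside names added after their values were seen, gave 42 members with a printed fold. Of these, 3 that were not called turned from negative to positive when measured from the median of all genes: grd-3 (0.42), ncr-1 (0.64) and ptr-11 (0.67). Outside the 42, further uncalled members turned positive as well, among them grl-1 (0.71), grl-2 (0.75) and grd-15 (0.20). No called member with a printed fold changed direction under the alternatives. Of the 42, 15 lost their call at an adjusted p below 0.01 and 9 when measured from the median of all genes. No paired analysis was possible because the table holds no values per library, and for the same reason no library could be left out. Wide intervals occurred at means of a few CPM and also at higher means, as for ptc-3 (−4.91 to 0.28 at 50.4 CPM). A gene not called may differ by several fold.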
